A study of Bos taurus with 12 samples.

Results

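The genes described here encode secreted antimicrobial proteins of the bovine mammary gland (MG): the calcium-binding S100 proteins S100A8, S100A9 and S100A12, lactoferrin (LTF), lipocalin 2 (LCN2), tracheal antimicrobial peptide (TAP), lactoperoxidase (LPO) and beta-defensin 1 (DEFB1). They were chosen by symbol. A probe was assigned to one of them when the RefSeq accession given with the probe mapped to that symbol in the bovine RefSeq table. Of the 8 genes, 6 were matched, to 12 of the 43653 probes of the array: 5 probes for LTF, 3 for S100A12 and 1 each for S100A8, S100A9, TAP and LPO. No probe was matched to LCN2 or DEFB1, and these genes were not analysed here.

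The samples were MG biopsies of 12 multiparous Holstein cows in early lactation (24 ± 3 days in milk), with 1 array per cow. The CONT cows (n = 6) kept free access to a lactation diet, whereas the REST cows (n = 6) were fed for 4 d a ration containing 48% barley straw on a dry matter basis. All 12 cows, CONT included, received 50 µg of lipopolysaccharide (LPS), the cell wall component of Gram-negative bacteria, in a healthy rear gland of the udder on d 3, and were biopsied 24 h later. No unchallenged sample was analysed here, so that the comparison is one of diets among LPS-challenged cows and gives no response to LPS.

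These proteins act on microbes in several ways. S100A8 and S100A9 pair into calprotectin, which is abundant in the cytosol of neutrophils and withholds zinc and manganese from bacteria, and S100A12 is a related neutrophil protein. Lactoferrin binds iron and is made both by mammary epithelial cells and in the secondary granules of neutrophils. Lactoperoxidase, the main peroxidase of milk, is made by secretory epithelium and oxidises thiocyanate to an antibacterial product. TAP is a beta-defensin, a small cationic peptide that epithelial cells make in response to bacterial products. In the assembly of the RefSeq table, S100A8, S100A12 and S100A9 are direct neighbours in this order.

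Levels are given as the log2 processed intensity of a spot minus the 75th percentile (P75) of log2 intensities on the same array, so that 0 is the P75 of that array. Levels of different probes cannot be set against each other, and a gene with several probes is represented by its brightest one, judged by the mean signal over all cows. The P75 was lowest on the array of REST 2, at an intensity of 386.9, and highest on that of CONT 6, at 1184. Feature Extraction, the image analysis software, called 57.6% to 78.1% of probes well above background per array. Precision is limited by how many arrays there are. In biopsies, fewer cells of a type and less RNA per cell cannot be told apart.

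None of the 6 matched genes differed between REST and CONT beyond the spread between cows. Each of the 12 probes had an adjusted p of 1 (limma, Westfall-Young adjustment over all probes), and in each of them the values of both diets overlapped. The share of all 43653 probes called under this adjustment was 0%, and the lowest adjusted p on the array was 0.3. The paper, with the same kind of adjustment in other software, reports differentially expressed genes between the diets. None of the 6 matched genes is among those it lists. The cause of this difference in calls was not tested. At an unadjusted p under 0.05, 2.62% of all probes passed, a count of 1143, and 0 of the 12 probes did. The lowest unadjusted p among them was that of TAP, at 0.339 (limma). The spread between cows was large. Diet accounted for 0.41% to 0.94% of the variance between cows of S100A8, S100A9, S100A12, LTF and LPO with the brightest probe and for 7.49% of that of TAP. The brightest LTF probe had saturated spots, and with the 4 other LTF probes the share was 0.52% to 2.40%.

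S100A8 was among the most variable genes of the array. In CONT, its level was 1.22 in the lowest cow, 2.65 at the median and 4.83 in the highest, and in REST it was -0.71, 3.85 and 5.47. REST 2 was the lowest and REST 6 the highest of all 12 cows, with CONT 1 next to REST 6, so that the range of REST enclosed that of CONT. Before the P75 was subtracted, the intensity of the S100A8 spot was 236.4 in REST 2 and 1697 to 35845 in the other 5 REST cows. The mean was 2.79 ± 1.26 (SD, n = 6) in CONT and 3.10 ± 2.24 in REST, a log2 fold change (FC) of 0.31 with a standard error (SE) of 0.94 (unadjusted p = 0.746, limma). The 95% confidence interval reached from 3.32-fold lower to 5.11-fold higher in REST.

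S100A9, the partner of S100A8 in calprotectin, showed the same order at its extremes. CONT cows were between 0.12 and 3.30 with a median of 1.61, and REST cows between -2.19 and 3.88 with a median of 2.73. REST 2 was again the lowest cow and REST 6 the highest, and 67.0-fold lay between them. The log2 FC was 0.23 (SE = 0.99, unadjusted p = 0.822, limma), with 1 of 6 REST cows below and 3 of 6 above all CONT cows.

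S100A12 was measured by 3 probes that gave nearly the same picture. With the brightest of them, CONT cows ranged from 3.75 to 7.01 around a median of 4.49, and REST cows from 1.60 to 7.03 around a median of 5.87. CONT 1 and REST 6 were almost level at the top, and REST 2 stood alone at the bottom, 43.0-fold below REST 6. The log2 FC was 0.19 (SE = 0.83, unadjusted p = 0.824, limma) with this probe and 0.22 with both others. The 3 probes correlated with each other at Pearson's r of 0.98 to 1.00 over the 12 cows.

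**Figure D1:**
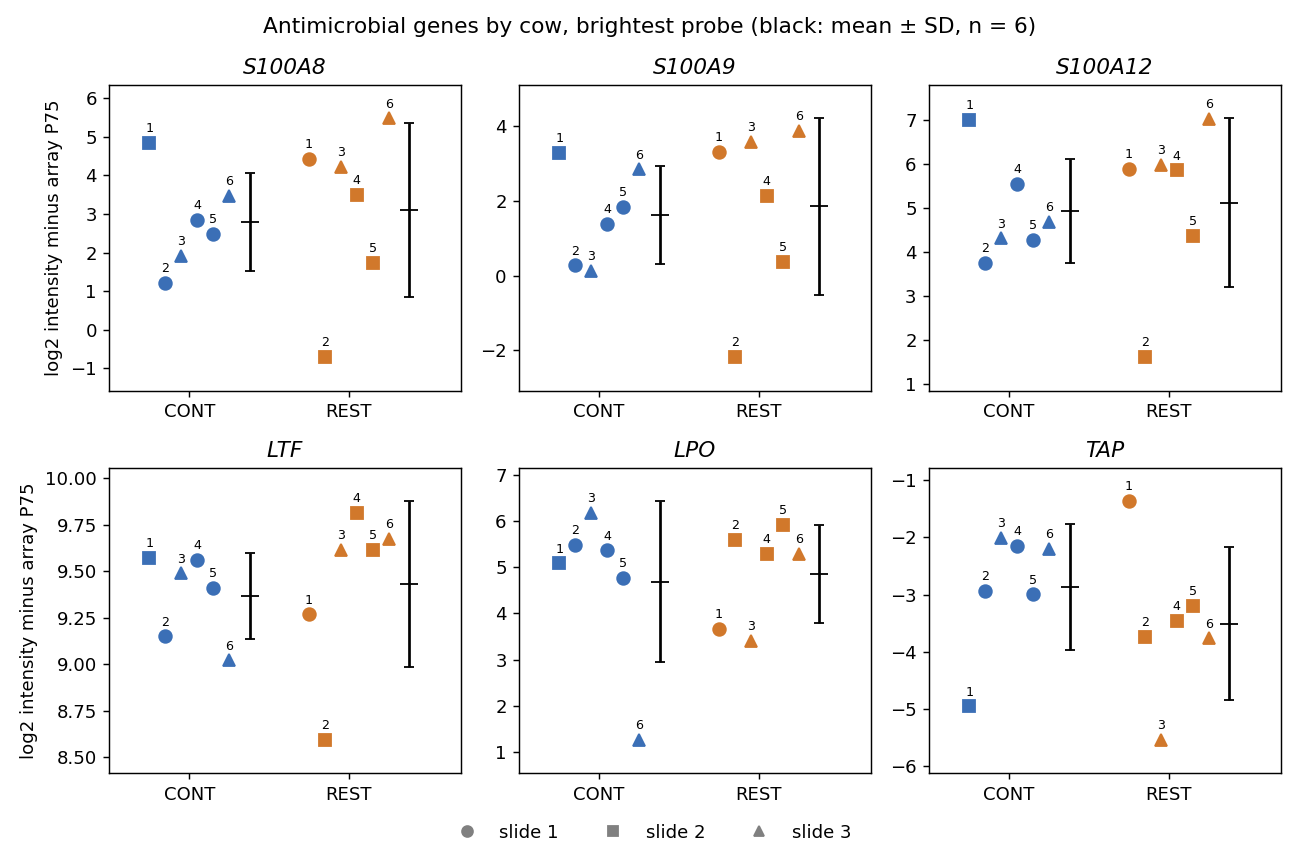
Level of S100A8, S100A9, S100A12, LTF, LPO and TAP in each cow (log2 intensity minus the P75 of the array, brightest probe), CONT in blue and REST in orange, numbered by cow and with 1 symbol per slide. Black bars give the mean ± SD (n = 6). The diets overlap in every panel. REST 2 is the lowest cow for the 3 S100 genes and LTF, and CONT 6 is the lowest for LPO.

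The within-diet SD of S100A9, S100A8 and S100A12 lay at the 99.8, 99.7 and 99.3 percentiles of the 9083 named genes well above background in all 12 cows, and that of LPO at the 98.9 percentile. The within-diet SD of the 4 LTF probes without saturated spots was 0.71 to 1.17, and that of the brightest LTF probe, which had saturated spots on 5 arrays, was 0.36. The direction of the S100 differences rested on single cows. Without REST 2, the log2 FC was 1.07 for S100A8, 1.03 for S100A9 and 0.89 for S100A12, and without REST 6 it was -0.16, -0.18 and -0.20. The adjusted p was 1 in each of these fits (limma, Westfall-Young).

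The 12 arrays lay on 3 slides with 4 arrays each, and each slide held both diets. The difference of the S100 genes changed sign between slides. For S100A8, REST minus CONT was 2.24 on slide 1 with 3 CONT cows and 1 REST cow, -3.32 on slide 2 with 1 CONT cow and 3 REST cows, and 2.15 on slide 3 with 2 cows of each diet. S100A9 gave 2.15, -3.19 and 2.25 on the same slides, and S100A12 gave 1.36, -3.07 and 2.01. REST 2 and CONT 1, the lowest cow and one of the highest, were both on slide 2. With slide as a block in the model, the log2 FC was 0.53 for S100A8, 0.59 for S100A9 and 0.29 for S100A12, and the adjusted p stayed at 1 (limma, Westfall-Young).

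The 3 S100 genes went up and down together from cow to cow. S100A8 and S100A9 correlated at r = 0.97 (permutation p = 1e-05, the smallest that 100000 permutations can give, adjusted p = 0.00035) and Spearman's rho = 0.94 (permutation p = 2e-05, adjusted p = 0.000467). S100A8 and S100A12 gave r = 0.96 (permutation p = 4e-05, adjusted p = 0.00035) and rho = 0.96 (permutation p = 3e-05, adjusted p = 0.000467). S100A9 and S100A12 gave r = 0.90 (permutation p = 0.00017, adjusted p = 0.000787) and rho = 0.90 (permutation p = 0.00017, adjusted p = 0.00119). These p-values were adjusted with Benjamini-Hochberg over 35 relations, of which 10 were pairs of the 5 matched genes well above background on all arrays and 25 set these genes against marker lists.

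The relation did not rest on REST 2 and REST 6 alone. When these 2 cows were left out, r was 0.95 for S100A8 and S100A9, 0.91 for S100A8 and S100A12, and 0.77 for S100A9 and S100A12. Within CONT, r was 0.93, 0.90 and 0.71 for these pairs in the same order, and within REST 0.99, 0.99 and 0.97. With the mean of each slide removed, r was 0.97 for S100A8 and S100A9, 0.97 for S100A8 and S100A12 and 0.91 for S100A9 and S100A12. All genes of a cow were read from 1 array and share its P75.

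**Figure D2:**
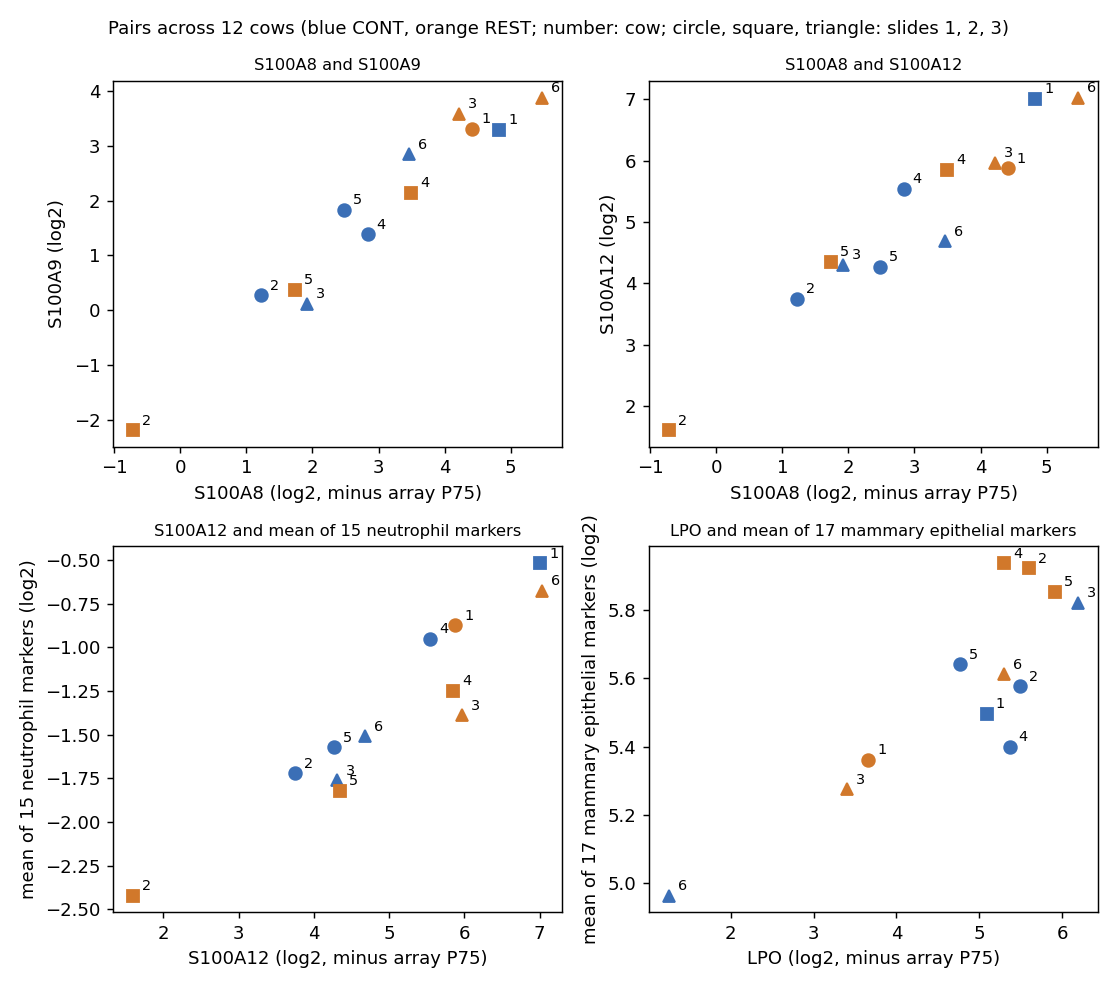
Pairs of measures across the 12 cows (log2, minus the P75 of the array), with CONT in blue, REST in orange and 1 symbol per slide. S100A8 is plotted against S100A9 (r = 0.97) and S100A12 (r = 0.96), S100A12 against the mean of 15 neutrophil markers (r = 0.94) and LPO against the mean of 17 mammary epithelial markers (r = 0.86). REST 2 lies at the lower left of the S100 panels and CONT 6 at the lower left of the LPO panel.

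The brightest LTF probe was saturated on 5 of the 12 arrays (CONT 2, CONT 4, CONT 6, REST 1 and REST 6), where the true level can only be higher than the value read. With this probe, CONT cows were between 9.02 and 9.57 with a median of 9.45, and REST cows between 8.59 and 9.81 with a median of 9.62. The 2 lowest cows were REST 2 and CONT 6, and CONT 6 is one of the saturated arrays. The log2 FC was 0.063 (SE = 0.21, unadjusted p = 0.771, limma).

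The 4 other LTF probes were not saturated on any array. The second brightest had a level of 7.52 to 8.68 in CONT (median 8.47) and of 6.46 to 8.76 in REST (median 8.59). REST 2, CONT 3 and REST 5 were the low cows, and the other 9 cows lay between 8.39 and 8.76. Its log2 FC was -0.20 (unadjusted p = 0.607, limma), and the 4 unsaturated probes gave -0.27 to -0.15. The sign of the LTF difference differed between the saturated probe and the others, and neither passed a test. REST 2 was lowest with all 5 probes, 4.92-fold to 11.8-fold below the highest cow with the 4 unsaturated ones. The low cows CONT 3 and REST 5 were at 9.49 and 9.62 with the brightest probe, where neither spot was saturated, and the cause of this difference between probes was not tested. The unsaturated probes correlated with each other at r of 0.90 to 0.98 over the 12 cows, and the saturated one with them at 0.36 to 0.65.

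**Figure D3:**
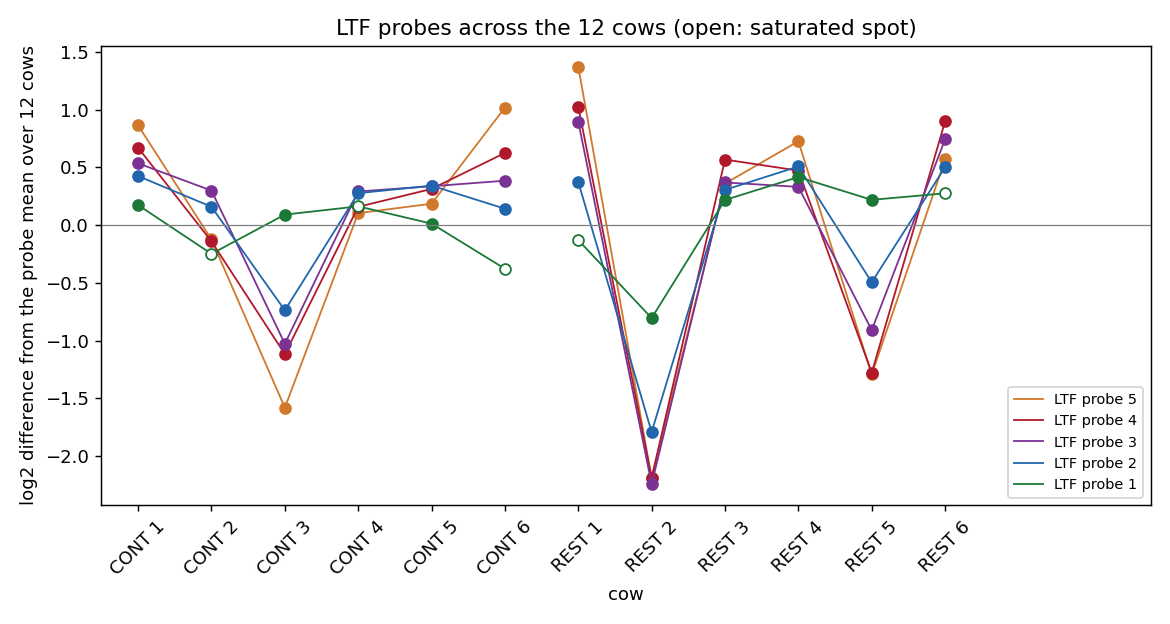
Each of the 5 LTF probes in each cow, as the log2 difference from the mean of that probe over the 12 cows; open symbols mark saturated spots. The 4 unsaturated probes run together, with REST 2, CONT 3 and REST 5 at the bottom, whereas the brightest probe, with 5 saturated spots, stays flatter.

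The relation of LTF with the S100 genes differed between probes. With the brightest probe, LTF correlated with S100A12 at r = 0.77 (permutation p = 0.00475, adjusted p = 0.0151), but rho was 0.64 (permutation p = 0.0268, adjusted p = 0.071), and r was 0.52 without CONT 6 and REST 2. With S100A8 and S100A9, r was 0.63 and 0.56 and did not pass the adjustment (adjusted p = 0.0775 and 0.105, permutation), and rho was 0.50 and 0.44 (adjusted p = 0.167 and 0.215, permutation). With the second probe, a choice made after the values were seen, r was 0.83 with S100A12, 0.82 with S100A8 and 0.86 with S100A9 (permutation p = 0.00096, 0.00085 and 0.00039). The rho of these pairs was 0.74, 0.81 and 0.76 (permutation p = 0.00751, 0.00267 and 0.0062), and r was 0.61, 0.64 and 0.65 without CONT 3 and REST 2. Within CONT alone the second probe correlated with S100A12, S100A8 and S100A9 at 0.43, 0.47 and 0.64, and within REST at 0.98, 0.95 and 0.95. The low value of LTF in REST 2 stood beside low S100 values in the same cow.

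LPO behaved otherwise. CONT cows were between 1.26 and 6.19 with a median of 5.23, and REST cows between 3.40 and 5.92 with a median of 5.30. CONT 6 stood far below the 11 other cows, with a spot intensity of 2833 against 7761 to 47034, and REST 1 and REST 3 followed at 3.66 and 3.40. The log2 FC was 0.17 (SE = 0.75, unadjusted p = 0.826, limma). Without CONT 6 it was -0.52, and with slide as a block it was -0.059. REST minus CONT was -1.55 on slide 1, 0.52 on slide 2 and 0.63 on slide 3.

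In contrast to the S100 genes, LPO was not low in REST 2, where it was 5.60. LPO and S100A9 had r = -0.53 (permutation p = 0.0756, adjusted p = 0.132) and rho = -0.75 (permutation p = 0.00687, adjusted p = 0.0219), so that the rank correlation passed the adjustment and Pearson's did not. Without CONT 6 and REST 3, r was -0.59. LPO and S100A8 gave r = -0.38 and rho = -0.62 (adjusted p = 0.321 and 0.0815, permutation), and LPO and S100A12 gave r = -0.18 and rho = -0.48 (adjusted p = 0.625 and 0.192, permutation), neither of which passed. LPO and LTF gave r = 0.24 (permutation p = 0.442, adjusted p = 0.552) and rho = 0.063 (permutation p = 0.851, adjusted p = 0.851).

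**Figure D4:**
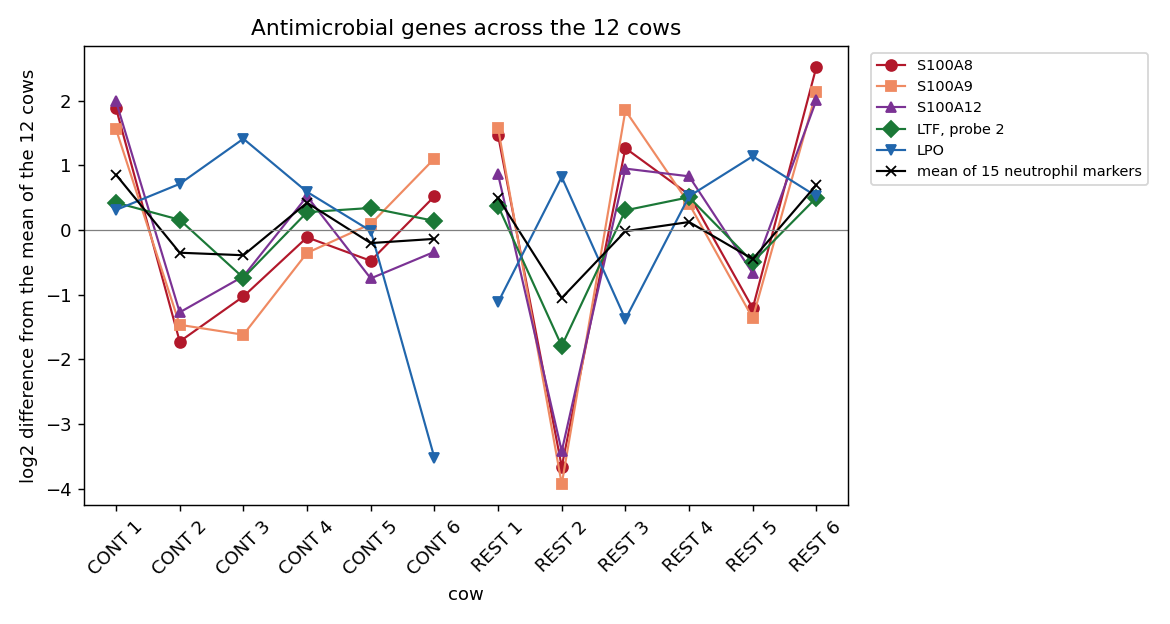
S100A8, S100A9, S100A12, LTF (second probe), LPO and the mean of 15 neutrophil markers in each cow, as the log2 difference from their own mean over the 12 cows. The S100 genes and the neutrophil mean are all above their means in CONT 1 and REST 6, with REST 6 the highest REST cow, and share their trough in REST 2, where LPO is above its mean. LPO has its trough in CONT 6.

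TAP was measured in the study also by RT-qPCR, where the paper reports a tendency to lower expression in REST. On the arrays it was well above background in all 6 CONT cows and in 5 of 6 REST cows, but dim. The mean of negative control spots was 3.81 to 18.3 per array. The TAP spot had an intensity of 25.8 to 256.6 in CONT and 15.9 to 419.3 in REST, with 5 of 6 REST cows at 59.4 or less. In CONT the level of TAP was -4.95 in the lowest cow, -2.57 at the median and -2.02 in the highest, and in REST it was -5.54, -3.60 and -1.37. Of the REST cows, 5 of 6 were below the CONT mean, but REST 1 was the highest of all 12 cows and CONT 1 the second lowest. The mean was -2.88 ± 1.10 (SD, n = 6) in CONT and -3.51 ± 1.34 in REST, a log2 FC of -0.64 (SE = 0.64, unadjusted p = 0.339, limma; exact permutation p = 0.385, two-sided). A mean lower in REST was also found for 56.5% of all 12639 named genes. The 95% confidence interval reached from 4.06-fold lower to 1.68-fold higher in REST.

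The difference in TAP was 1.33 on slide 1, 1.49 on slide 2 and -2.54 on slide 3, and -0.17 with slide as a block. It ranged from -1.06 to -0.23 when single cows were left out, with the smallest difference without REST 3, whose spot was not well above background. TAP belongs to a cluster of beta-defensin genes of closely similar sequence, and whether its probe also binds RNA of other members was not tested. With S100A8, TAP had r = -0.20 (permutation p = 0.542) and rho = -0.28 (permutation p = 0.38), both computed after the values were seen. The sign was not stable, with r = 0.24 without CONT 1 and REST 3, -0.63 within CONT and 0.029 within REST.

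**Figure D5:**
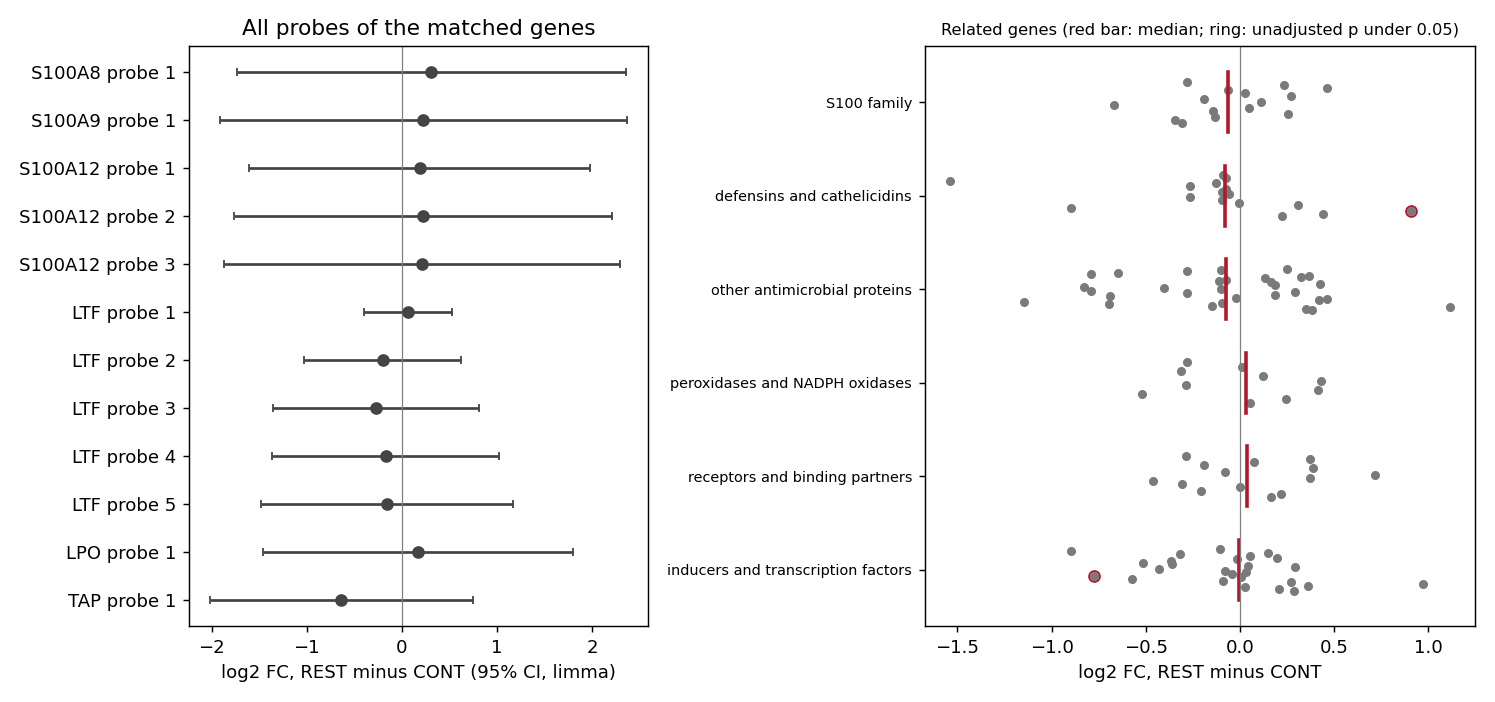
Log2 FC of REST minus CONT. On the left, each probe of the matched genes with its 95% confidence interval (limma); all 12 intervals include 0. On the right, the genes of 6 related lists, with the median of each list in red and genes with an unadjusted p under 0.05 (CATHL2 and IL1A) ringed.

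The related antimicrobial families were described by counts. Among all 12639 named genes, 2.64% had an unadjusted p under 0.05, 1.63% higher and 1.01% lower in REST, and the median log2 FC was -0.034. Of 18 further genes of the S100 list, among them S100PBP, which encodes a binding protein of S100P, 15 were matched and 0 had an unadjusted p under 0.05, with a median log2 FC of -0.064. The S100 genes with the largest differences among those well above background on all arrays were S100A2 (log2 FC = -0.67, SE = 0.99) and S100A10 (log2 FC = -0.34, SE = 0.37), the annexin A2 partner. With slide as a block the median of this list was 0.20.

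Of 39 defensins and cathelicidins, 16 were matched and 1 had an unadjusted p under 0.05. This was CATHL2, a cathelicidin stored in neutrophil granules, at -3.26 in CONT and -2.35 in REST (log2 FC = 0.91, SE = 0.41, unadjusted p = 0.0472, Westfall-Young adjusted p = 1, limma), with 6 of 6 REST cows above the CONT mean. DEFB4A, a beta-defensin, had a larger difference in the other direction (log2 FC = -1.54, SE = 0.90), with 3 of 6 REST cows below all CONT cows and an unadjusted p of 0.112 (limma). The median of the list was -0.080. Lingual antimicrobial peptide (LAP), a beta-defensin of cattle that the study also measured by RT-qPCR, was not matched to a probe and not analysed here.

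Among 31 matched genes of other antimicrobial proteins, 0 had an unadjusted p under 0.05 and the median log2 FC was -0.071. The largest differences were those of CHI3L1, a chitinase-like protein (log2 FC = -1.15, SE = 0.87), and BPI, the bactericidal permeability-increasing protein of neutrophil granules (log2 FC = 1.12, SE = 0.67). Of 10 matched peroxidases and NADPH oxidase subunits, 0 passed, with a median of 0.034. NCF1 and NCF4, subunits of the phagocyte oxidase, had log2 FC of 0.43 and -0.31.

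Receptors and inducers of these proteins gave similar counts. Of 14 matched receptors and binding partners, 0 had an unadjusted p under 0.05, with a median of 0.037. Among those well above background on all arrays, CD36 and MMP9 had the largest log2 FC, at 0.72 (SE = 0.63) and 0.39 (SE = 0.35). Of 26 matched inducers and transcription factors, 1 passed with a median of -0.006. This was IL1A, the cytokine interleukin 1 alpha (log2 FC = -0.77, SE = 0.30, unadjusted p = 0.0218, adjusted p = 1, limma), which was below every CONT cow in 5 of 6 REST cows, with a spot well above background on 5 arrays of CONT and 3 of REST. TNF and NFKB2 had log2 FC of -0.90 (SE = 0.52) and -0.52 (SE = 0.34). Values of both diets did not overlap in 0.15% of all named genes, and in none of the 6 matched antimicrobial genes.

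The S100 genes moved with the mean log2 level of markers of neutrophils and of macrophages. Of 25 neutrophil markers, 15 were matched, 9 of them well above background on all arrays and 1, CD177, on none. The mean of these markers correlated with S100A12 at r = 0.94 (permutation p = 5e-05, adjusted p = 0.00035) and rho = 0.88 (permutation p = 0.00031, adjusted p = 0.00181), and it correlated with S100A8 at r = 0.91 (permutation p = 0.00011, adjusted p = 0.000642) and rho = 0.92 (permutation p = 4e-05, adjusted p = 0.000467). With S100A9, r was 0.84 (permutation p = 0.00064, adjusted p = 0.00224) and rho 0.81 (permutation p = 0.00226, adjusted p = 0.00836). Without REST 2 and REST 6, these values were 0.89, 0.81 and 0.67, and with slide means removed 0.97, 0.95 and 0.87. The mean of 12 matched macrophage and monocyte markers gave r of 0.88, 0.92 and 0.88 with S100A12, S100A8 and S100A9 (adjusted permutation p = 0.00128, 0.00035 and 0.00035) and rho of 0.82, 0.92 and 0.83 (adjusted permutation p = 0.00674, 0.000612 and 0.00674). The difference between the neutrophil and the macrophage list was not tested. For lymphocyte markers r was 0.41 to 0.61, with none past the adjustment (lowest adjusted p of r = 0.0775, permutation). S100A9 and the mean of the mammary epithelial markers had r = -0.60 (permutation p = 0.0371, adjusted p = 0.0775) and rho = -0.55 (permutation p = 0.0671, adjusted p = 0.131), which did not pass.

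LTF also moved with the mean log2 level of the neutrophil and of the macrophage markers when read with its second probe. Its r with the neutrophil mean was 0.81 (permutation p = 0.00012, adjusted p = 0.00228) and rho 0.84 (permutation p = 0.00112, adjusted p = 0.0213), and r was 0.66 without CONT 3 and REST 2. With the macrophage mean, r was 0.78 (permutation p = 0.0017, adjusted p = 0.00646) and rho 0.79 (permutation p = 0.00345, adjusted p = 0.0218), but r was 0.13 within CONT and 0.93 within REST. With the lymphocyte mean, r was 0.62 (permutation p = 0.0202, adjusted p = 0.064) and rho 0.58 (permutation p = 0.0527, adjusted p = 0.167), which did not pass. These p-values were adjusted over the relations of the second LTF probe and of TAP, all added after the values were seen. The saturated probe gave r of 0.60 and 0.64 with the neutrophil and macrophage means, which did not pass (both adjusted p = 0.0775, permutation). Its rho with them was 0.42 and 0.41 (both adjusted p = 0.237, permutation).

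The log2 of the summed neutrophil marker intensities, relative to the array P75, was 4.97 to 5.51 in CONT and 5.51 to 5.74 in REST. Their mean log2 level was -1.76 to -0.52 in CONT and -2.42 to -0.67 in REST. The sum did not share the trough of the S100 genes. It was 5.51 in REST 2, against 5.51 in CONT 1 and 5.52 in REST 6, where those genes were high. With the macrophage markers, the sum was lowest in REST 2 (4.35) and highest in REST 6 (6.20). Correlations with the sums were not computed. A sum adds intensities of probes that may bind unequally, so that it does not weight the markers alike. TREM1, a receptor of myeloid cells, was the neutrophil marker with an unadjusted p under 0.05 (log2 FC = 0.60, SE = 0.24, unadjusted p = 0.0267, adjusted p = 1, limma). The median log2 FC of the list was -0.062, with 5 of 15 markers higher and 10 lower in REST. Among the markers well above background on all arrays, PADI4 had the largest log2 FC after TREM1, at 0.57 (SE = 0.76). CXCR1, a receptor of neutrophils for interleukin 8 that was well above background on 11 arrays, had the largest difference of the list, at -1.03 (SE = 0.99, unadjusted p = 0.317, limma), and is named after its value was seen. The part of leukocyte numbers in the S100 values was not tested.

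LPO moved with markers of the mammary epithelium. All 17 matched epithelial markers were well above background in every cow, and their mean correlated with LPO at r = 0.86 (permutation p = 0.00018, adjusted p = 0.000787) and rho = 0.69 (permutation p = 0.0166, adjusted p = 0.0484). Without CONT 6 and REST 3, r was 0.64. With the mean of the lymphocyte markers, LPO had r = -0.59 (permutation p = 0.0346, adjusted p = 0.0775) and rho = -0.81 (permutation p = 0.00239, adjusted p = 0.00836), and r was -0.69 without CONT 6 and REST 3. The log2 of the summed epithelial marker intensities, relative to the array P75, was 10.9 to 12.5 in CONT and 11.4 to 12.9 in REST. The mean log2 level of these markers was lowest in CONT 6, the cow with the lowest LPO. Among all 12639 named genes, 5500 had a higher mean in REST. The median log2 FC of the epithelial list was 0.20, with 14 of 17 markers higher in REST and 0 at an unadjusted p under 0.05. This median was 0.052 with quantile normalization, 0.14 with slide as a block and 0.057 to 0.39 with 1 cow left out, lowest without CONT 6 and highest without REST 3. Of the markers, GLYCAM1 (0.50, SE = 0.45) and KRT18 (-0.49, SE = 0.56) had the largest log2 FC. The part of the epithelial share of the biopsies in the LPO values was not tested.

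Of the macrophage and monocyte markers, 0 had an unadjusted p under 0.05, with a median log2 FC of 0.003, which was 0.17 with slide as a block and -0.20 to 0.22 with 1 cow left out, and the largest values for MSR1 (1.12, SE = 0.63) and CD163 (0.85, SE = 0.41). Of 14 matched lymphocyte markers, 2 passed, CD3D (log2 FC = 0.60, unadjusted p = 0.0400, adjusted p = 1, limma) and MS4A1 (unadjusted p = 0.0249, adjusted p = 1, limma). MS4A1 was well above background on 0 arrays of CONT and 4 of REST. With its CONT values raised to the lowest level well above background on each array, its mean was 1.15-fold higher in REST. Its fold change was therefore poorly measured. CD3G had a log2 FC of -0.27. The share of all named genes with an unadjusted p under 0.05 was 2.64%, and the lymphocyte list had 6 markers higher and 8 lower in REST, with a median of -0.045. Of 11 matched basal and keratinised epithelial markers, 0 passed, with 6 higher and 5 lower in REST and a median of 0.009. IVL and KRT15 had log2 FC of 0.63 and 0.45.

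The genes whose level ran closest to that of each antimicrobial gene over the 12 cows were sought among 9001 genes that had a value well above background on each array, as a description without a test. S100A8 was closest to ACSL6 (r = 0.99), RNASE6 (r = 0.99) and GMFG (r = 0.99), and S100A9 to RNASE6 (r = 0.98), C25H16orf54 (r = 0.98) and S100A8 itself. S100A12 was closest to LOC508666 (r = 0.99), ACSL6 (r = 0.98) and TCN1 (r = 0.98), the vitamin B12 binding protein of neutrophil granules. RNASE6, an antimicrobial ribonuclease of phagocytes, had a log2 FC of 0.37 (SE = 0.58). LPO was closest to CYP3A76 (r = 0.96), MUC1 (r = 0.96), a mucin of the apical membrane of epithelium and of milk fat globules, and TMEM125 (r = 0.96). The saturated LTF probe was closest to TMSB10 (r = 0.89), ACTB (r = 0.85) and CFL1 (r = 0.83), which act in the actin cytoskeleton. Its values were capped on 5 arrays, and the closest genes of an unsaturated LTF probe were not sought.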

How the data were processed

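MG RNA of 12 cows, carrying the dye Cy3, was measured on Agilent one-color arrays of bovine probes. The deposited values are spot intensities from the authors' Feature Extraction runs (version 11.0.1.1), background-corrected and not normalized between arrays, with outlier, saturation and background flags; the deposited value table holds the same intensities (largest difference 0). Spots of the 43653 non-control probes were taken as log2 minus the array P75, outlier spots were set to missing, and spots of a probe were averaged. REST and CONT were compared with limma 3.58.1 (R 4.3.3) over all probes, with two-sided p-values, the Westfall-Young adjustment that the methods name, computed here over 100 distinct splits of the cows, and a threshold of 0.05. The smallest adjusted p this allows is 0.01, and the exact permutation test of 6 against 6 cows cannot go below 0.00216.

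Correlations used 100000 permutations. Figures were drawn with matplotlib 3.10.9. Probes were named through RefSeq accessions (ARS-UCD2.0 table), which matched 26832 probes; the array was annotated on another assembly, so that no positions are given. The genes named were the 8 antimicrobial genes, LAP, in each list the genes with an unadjusted p under 0.05 and the 2 with the largest log2 FC among those well above background on all arrays, and the 3 genes most like each antimicrobial gene; S100PBP, CD177 and CXCR1 lie outside this rule and were named after their values were seen. The genes and lists were chosen with earlier results of these data known. The marker list correlations, the second LTF probe and the correlations of TAP were added after the values were seen. The scripts were tested on simulated data. Alternatives were Benjamini-Hochberg adjustment, quantile normalization, normexp (offset 50), the value table, a background filter (26678 probes), outlier spots kept, slide as a block, an intensity trend, averaging every probe of a gene, and leaving out each cow.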

Additional observations from a re-analysis of the deposited data

Results flagged for a closer look

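Within a diet of 6 cows, the lowest or highest cow was compared with the others by Dixon's ratio, the gap to the nearest cow over the whole range, with a critical value of 0.625. In 24 tests (12 probes, 2 diets) the ratio was above it in 5, which concern 4 cows, where chance gives about 1.2 (1 in 20). The probes of a gene are not independent of each other. LPO in CONT 6 was 1.26, against 4.76 to 6.19 in the other CONT cows (ratio 0.71). LTF in CONT 3 was 7.52 with the second probe, against 8.39 to 8.68 (ratio 0.76), and 6.45 with the third probe, against 7.77 to 8.02 (ratio 0.84). S100A12 in REST 2 was 0.22 with its second probe, against 3.74 to 5.63 (ratio 0.65). TAP in CONT 1 was -4.95, against -3.00 to -2.02 (ratio 0.67). S100A8 and S100A9 had no such cow in either diet.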

How the results depend on the processing

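No probe was called under any alternative, with a lowest adjusted p of 0.11 to 0.38 under Westfall-Young settings with all cows, 0.777 under Benjamini-Hochberg and 0.18 to 0.56 with 1 cow left out. At an unadjusted p under 0.05, 377 probes passed with normexp, and 825 to 1739 with 1 cow left out, against 1143. Under all alternatives the list medians moved by less than the SD between cows of the list mean, pooled over both diets, but the receptor median moved by more than the SD within REST and the macrophage and lymphocyte medians by more than that within CONT. All list medians but that of the mammary epithelial markers took both signs, for example -0.071 to 0.16 for other antimicrobial proteins and -0.17 to 0.17 for peroxidases under settings with all cows. The sign of the LTF difference turned with quantile normalization (-0.22), with the mean over all its probes (-0.15) and with the brightest unsaturated probe (-0.20). That of LPO turned with slide as a block (-0.059). With 1 cow left out, the log2 FC ranged from -0.16 to 1.07 for S100A8, from -0.18 to 1.03 for S100A9, from -0.20 to 0.89 for S100A12, from -0.013 to 0.23 for LTF and from -0.52 to 0.47 for LPO, and each of these signs turned without some cow. These were CONT 2 and REST 6 for S100A8 and S100A12, CONT 2, CONT 3, REST 1, REST 3 and REST 6 for S100A9, CONT 6 and REST 4 for LTF, and CONT 6 and REST 5 for LPO. TAP ranged from -1.06 to -0.23 without a change of sign. With normexp and all cows, the log2 FC of TAP was -0.28, against -0.64 in the main fit. The causes were not tested. The samples carry no replicate numbers shared between diets. No paired analysis was possible because the labels give no numbers that link a REST to a CONT cow. Spots not well above background (TAP on 1 array) and saturated spots (LTF on 5) limit what was measured.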
